A study of Mus musculus with 3 samples.

Results

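The 7 genes described here are Slc30a8, Slc30a1, Slc30a5, Slc30a7, Slc39a14, Mt1 and Mt2, taken by symbol from a feature list of 31053 genes. They encode zinc transporters and metallothioneins, and each symbol matched 1 row in every library. They were followed through beta, alpha, delta, gamma, duct, acinar and stromal cells of pancreatic islet preparations. The islets came from 3 non-diabetic female NOD-SCID mice aged 10 to 11 weeks, an immunodeficient strain whose lack of mature lymphocytes spares it the autoimmune diabetes known from NOD animals. Each mouse gave 1 library of droplet-based single-cell RNA sequencing, which counts transcript 3′ ends as unique molecular identifiers (UMIs). The mice form 1 group that shares strain, sex and age, and no treatment is named in the labels. Comparisons are made between cell classes within mice.

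Insulin is stored in the beta cell as crystals that hold zinc, and ZnT8, the product of Slc30a8, carries zinc from the cytosol into the secretory granule. Proteins of the Slc30 family (ZnT) move zinc out of the cytosol, into organelles or across the plasma membrane. Proteins of the Slc39 family (ZIP) move it into the cytosol. Metallothioneins are small cysteine-rich proteins that bind zinc and copper, and their genes are switched on by the zinc-sensing factor MTF1 through metal response elements and also by glucocorticoids and cell stress.

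Mt1, Mt2 and Slc30a1 are known targets of MTF1, so their promoters are shown, each from 250 bases before to 50 bases after the RefSeq gene start (GRCm38.p6, 5′ to 3′ on the gene's strand). Capitals mark a loose 7-base form of the metal response element core, TGCNCNC, on the printed strand or as its reverse complement, GNGNGCA.
Mt1 (chr8:94178839-94179138, + strand): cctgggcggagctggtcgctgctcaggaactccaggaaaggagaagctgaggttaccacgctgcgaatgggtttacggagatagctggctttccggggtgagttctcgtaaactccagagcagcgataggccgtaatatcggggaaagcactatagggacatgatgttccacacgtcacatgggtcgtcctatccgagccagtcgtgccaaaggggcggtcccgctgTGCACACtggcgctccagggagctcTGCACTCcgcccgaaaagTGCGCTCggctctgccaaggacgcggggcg
Mt2 (chr8:94172368-94172667, + strand): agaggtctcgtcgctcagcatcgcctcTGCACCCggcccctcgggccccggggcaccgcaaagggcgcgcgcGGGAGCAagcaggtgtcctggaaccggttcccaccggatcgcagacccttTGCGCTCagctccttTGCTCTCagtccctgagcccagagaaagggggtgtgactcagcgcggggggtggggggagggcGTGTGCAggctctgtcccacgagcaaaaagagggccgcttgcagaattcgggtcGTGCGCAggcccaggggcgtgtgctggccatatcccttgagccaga
Slc30a1 (chr1:191906531-191906830, + strand): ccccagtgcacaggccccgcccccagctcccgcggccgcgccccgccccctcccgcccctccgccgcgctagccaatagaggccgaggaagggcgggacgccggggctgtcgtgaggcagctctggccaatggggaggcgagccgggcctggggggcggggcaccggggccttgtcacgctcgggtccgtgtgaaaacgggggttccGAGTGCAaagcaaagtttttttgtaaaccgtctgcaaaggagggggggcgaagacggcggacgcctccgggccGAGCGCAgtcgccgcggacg
The Mt2 window held 6 matches, the Mt1 window 3 and the Slc30a1 window 2. The stricter core TGCRCNC, with R for A or G, is not met by the Mt2 matches TGCTCTC and GGGAGCA. The promoters of Slc30a5 and Slc30a7, in the same table, held 1 and 0, and 5 of the 7 genes had an entry. Among all 32851 promoters of this length in the table, 51.0% held at least 1 match, 20.2% at least 2, 7.1% at least 3 and 0.225% at least 6. A match describes letters and not a bound site, and an annotated start need not be the start used in these cells. Mt2 (chr8:94172664-94173568) and Mt1 (chr8:94179082-94180327) lie in the same orientation with 5513 bases between them. Their transcripts share no exact run longer than 20 bases, and none longer than 12 bases in the last 150, so little of the counted 3′ end could be assigned to the wrong gene of the pair. Slc30a8 lies at chr15:52295553-52335798 on the + strand, and Slc39a14 at chr14:70303469-70351425 on the - strand (GENCODE M21, GRCm38). Antisense or other-strand gene models overlap Slc30a1, Slc30a7 and Mt2, and the strand setting of the counting is not given in the sources used here.

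Filters kept 1090, 2609 and 3474 cells of mice 1, 2 and 3. Clusters were made from marker genes that include none of the 7 genes, and classes carry the suffix "-like" because they rest on those markers. The beta-like class held 784 cells, alpha-like 1398, delta-like 751, gamma-like 267, duct-like 384, acinar-like 163 and stromal-like 224 (pericyte-like and fibroblast-like together). Endothelial-like (375 cells) and macrophage-like cells (183) were measured beside them. Insulin made up 64.0% to 68.2% of beta-like UMIs, and all 8 alpha, 6 delta, 9 duct and 16 acinar markers were detected in their class in every mouse. Among the 8 gamma markers, 1 or 2 were at 0 in each mouse. Gamma-like cells numbered 21, 11 and 235, and acinar-like cells 31, 116 and 16, so values for these classes rest on few cells in some mice. The 2380 unnamed cells, 1335 of them in mouse 2, had low depth or were led by gene models that overlap ribosomal RNA, and they enter no comparison. Between mice 1 and 2 there were 148 barcodes in common, and 14 of these passed as cells in each. Leaving out shared barcodes changed no call for any of the 7 genes. In endothelial-like cells 1.47% to 4.40% of UMIs were insulin, a transcript that these cells do not make, so levels in non-endocrine classes are given beside such carried-over RNA.

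UMIs were summed per mouse and class, and levels are counts relative to all UMIs of a sum, in the usual CPM unit, scaled by the trimmed mean of M values (TMM CPM), which compares the bulk of genes and sets aside the very large share that hormones or digestive enzymes take. Differences are log2 fold changes from edgeR's quasi-likelihood test with the mouse as a block and Benjamini-Hochberg adjustment over 12448 genes. A call means an adjusted p under 0.05. All 7 genes passed the filter on low counts. The p-values cover the spread of class differences over 3 mice, not the error of making classes from the same cells.

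Beta-like cells exceeded the delta-like, gamma-like, duct-like and stromal-like classes in Slc30a8 and Mt1. Against alpha-like cells 3 of the 7 genes, Slc30a7, Mt1 and Mt2, were called, all higher in beta-like cells, where 39.6% of all genes tested were called, 20% upward and 19.6% downward. Against delta-like cells 4 were higher (of all genes 35.7% called, 17.2% up and 18.5% down). Against gamma-like cells 3 were higher (26.1% called, 14.4% up and 11.6% down). Against stromal-like cells 3 were higher (46.8% called, 22% up and 24.7% down). Against duct-like cells 5 were higher and 1 lower (60.8% called, 28% up and 32.8% down). Against acinar-like cells 1 was higher and 3 were lower (30.1% called, 17.8% up and 12.3% down). These shares of 7 are read against a background in which a call between classes is common, so the sizes carry more than the counts. The median log2 fold change of the 7 genes was 0.25 against alpha-like cells, 0.79 against delta-like, 0.30 against gamma-like, 0.70 against duct-like, -0.45 against acinar-like and 0.72 against stromal-like cells. The medians over all genes tested were -0.01, -0.03, 0.07, -0.06, 0.38 and 0.05 in the same order. Comparisons with acinar-like cells therefore carry a shift of 0.38 for the typical gene.

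**Figure D1:**
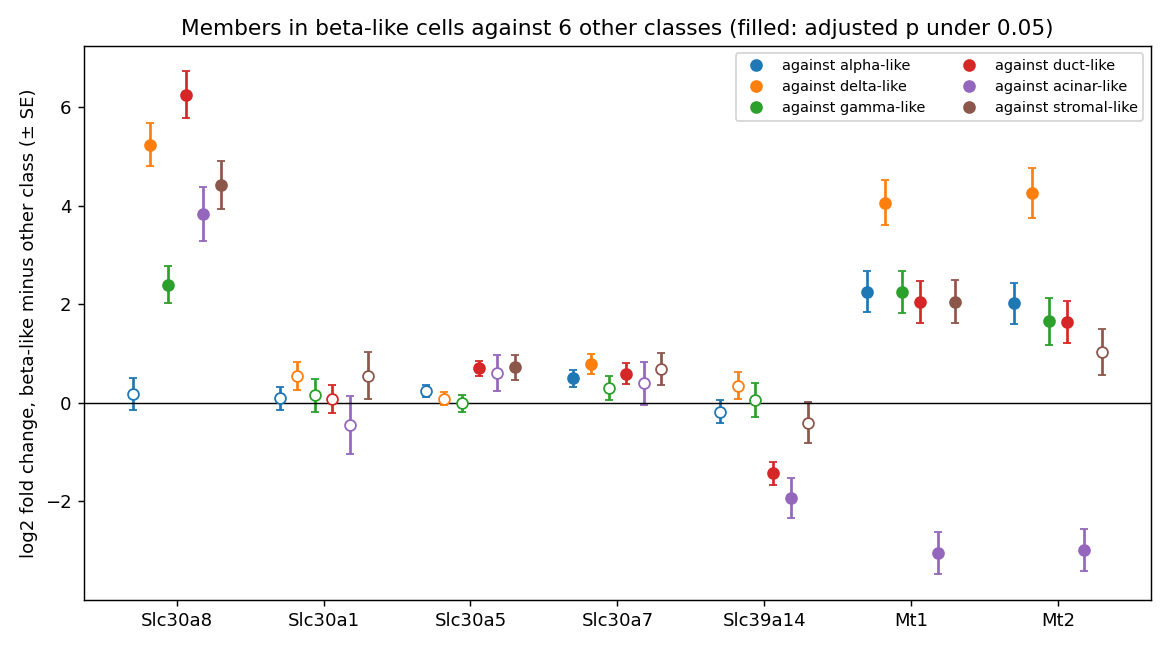
Log2 fold change (y axis, beta-like minus the other class, bars ± SE) of each of the 7 genes (x axis) against 6 classes, from the fit over 3 mice, with filled points for adjusted p under 0.05. Slc30a8 sits at 0.18 against alpha-like cells and between 2.40 and 6.25 against the others, Mt1 and Mt2 lie above 0 except against acinar-like cells, and the other transporters lie between -1.93 and 0.79.

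Slc30a8 was highest in beta-like and alpha-like cells. In beta-like cells its level was 486, 522 and 575 TMM CPM in mice 1, 2 and 3. In alpha-like cells it was 441, 539 and 441 TMM CPM. The groups overlapped, with mouse 2 higher in alpha-like cells and mice 1 and 3 higher in beta-like cells. The log2 fold change was 0.18 ± 0.33 (SE, adjusted p = 0.72), with a 95% interval of -0.53 to 0.88, or 0.694-fold to 1.84-fold. A difference beyond that range was not seen, and a smaller one in either direction cannot be told from none. With totals left unscaled the sign turned to -0.41, since insulin takes up most of the beta-like total.

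In delta-like cells the level of Slc30a8 was 13.2, 25.5 and 7.22 TMM CPM, from 29, 92 and 64 UMIs. All 3 values lay far below those of beta-like and alpha-like cells, by 37.8-fold against beta-like cells (log2 fold change 5.24 ± 0.43, adjusted p = 2.4e-08). In gamma-like cells the level was 129, 23.0 and 103 TMM CPM, with the value of mouse 2 resting on 8 UMIs in 11 cells. Gamma-like levels lay below those of beta-like and alpha-like cells without overlap. They were above the delta-like levels in mice 1 and 3. In mouse 2 the gamma-like value (23.0) was below the delta-like one (25.5). Beta-like cells exceeded gamma-like cells by 2.40 ± 0.38 (adjusted p = 1.1e-04), and alpha-like cells did so by 2.22 ± 0.38 (adjusted p = 9.7e-04). The latter was 2.38 without mouse 3 (0.051) and 2.53 with free RNA subtracted (0.12), larger values that missed the threshold. In the fit delta-like cells were below gamma-like cells, with a log2 fold change of delta-like minus gamma-like of -2.84 ± 0.45 (adjusted p = 1.7e-04, but 0.087 without mouse 3). Within mice they were lower in 2 of 3. Of all genes, 9.18% were called between alpha-like and gamma-like cells and 18% between delta-like and gamma-like cells.

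Gamma-like cells were not uniform. Cells with at least 1% of their UMIs from Gcg, the glucagon gene, held Slc30a8 at 339, 162 and 225 CPM without scaling, from 7, 1 and 84 cells. Cells under 1% held it at 42.8, 0 and 27.9 CPM, from 14, 10 and 151 cells. The levels did not overlap, and in mouse 2 all 8 UMIs came from the same cell. The 1% cut was chosen after values were seen, and no test was run.

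In duct-like cells the level was 7.98, 9.84 and 3.65 TMM CPM, and in stromal-like cells 7.80, 46.1 and 19.7. In acinar-like cells it was 55.6, 28.4 and 50.8 TMM CPM, from only 15, 17 and 6 UMIs. Endothelial-like cells held 22.7, 18.8 and 11.6 TMM CPM and macrophage-like cells 40.0, 60.4 and 19.0. Neither of the last classes is endocrine, and they serve as the measure of carried-over RNA. Against their mean, beta-like cells were higher by 4.46 ± 0.37 (adjusted p = 1.1e-08), alpha-like by 4.29 ± 0.37 (2.1e-08) and gamma-like by 2.06 ± 0.44 (7.5e-04). Duct-like cells were lower by 1.79 (log2 fold change -1.79 ± 0.57, adjusted p = 0.018), and delta-like, acinar-like and stromal-like cells did not pass the test (-0.78 ± 0.50, 0.63 ± 0.71 and 0.04 ± 0.61). Of all genes, 56.6%, 54.5%, 48.1% and 42.9% were called against this mean for beta-like, alpha-like, gamma-like and duct-like cells.

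**Figure D2:**
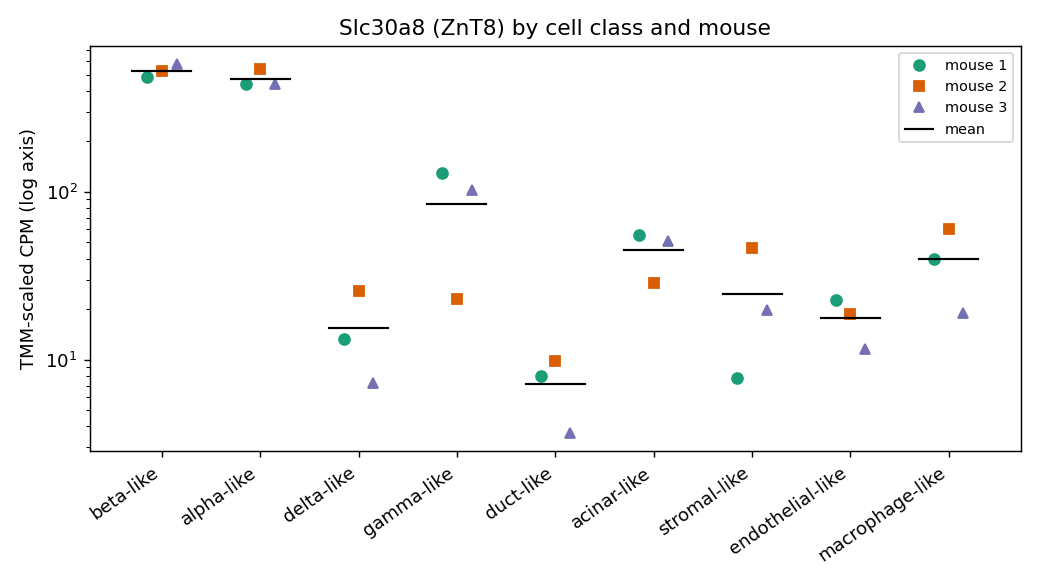
Slc30a8 level (y axis, TMM CPM, log scale) in 9 cell classes (x axis), with 1 point per mouse and a line at the mean. Beta-like and alpha-like cells sit between 441 and 575, gamma-like cells between 23.0 and 129, and the other classes at or below 60.4.

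The hormone RNA in each class gives another scale for the low values. If the insulin UMIs of a class brought Slc30a8 along at the beta-like ratio and its Gcg UMIs at the alpha-like ratio, delta-like cells would hold 74.7%, 81.7% and 77.6% of the Slc30a8 UMIs observed. The same share was 125%, 92.9% and 115% in duct-like cells and 147%, 102% and 75.9% in acinar-like cells. It was 160%, 152% and 80.8% in stromal-like cells, 85.2%, 137% and 84.6% in endothelial-like cells and 35.7%, 39.4% and 92.3% in macrophage-like cells. In 5 of these 6 classes, macrophage-like cells being the exception, the number computed from hormone RNA came to at least 74.7% of the Slc30a8 UMIs seen. The stromal-like value of mouse 2 came with 21.2% insulin UMIs. In gamma-like cells the share was 27.2%, 265% and 84.9%.

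**Figure D3:**
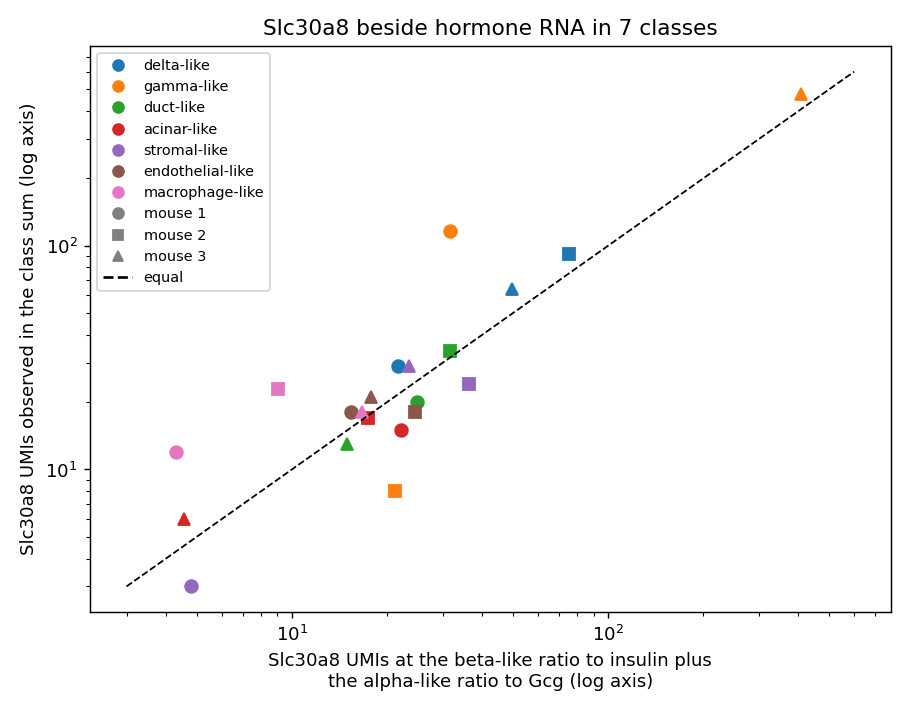
Slc30a8 UMIs observed (y axis, log scale) against the number that goes with a class's insulin and Gcg UMIs at the ratios of beta-like and alpha-like cells (x axis, log scale), for 7 classes (colours) in 3 mice (symbols). Most points lie near the dashed line of equality. Gamma-like cells of mouse 1 (116 UMIs observed) and macrophage-like cells of mice 1 and 2 (12 and 23 UMIs) lie above it. Gamma-like cells of mouse 2 (8 UMIs) lie below it.

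Per cell, Slc30a8 gave at least 1 UMI in 87.8%, 96.2% and 97.4% of beta-like and in 97.0%, 97.1% and 97.2% of alpha-like cells. After each cell was thinned to 2000 UMIs the shares were 53.7%, 40.1% and 54.8% of 134, 292 and 341 beta-like cells. They were 57.1%, 61.7% and 56.6% of 163, 277 and 938 alpha-like cells. In delta-like cells the thinned shares were 2.67%, 5.23% and 2.86%, below those of endothelial-like cells at 10.2%, 6.02% and 4.74% in mice 1, 2 and 3. Median depths ran from 23078 to 55534 UMIs in beta-like and from 4289 to 9234 in endothelial-like cells. The beta-like shares after thinning are lowered by insulin, which fills most of the 2000 UMIs.

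The 5 genes whose log2 TMM CPM followed Slc30a8 most closely over 27 sums, out of 3871 eligible genes, were Chga (Pearson r = 0.874), Ddc (0.871), Skap1 (0.863), Dapl1 (0.858) and Ank (0.842). Chga encodes chromogranin A of the secretory granule and Ddc the aromatic amino acid decarboxylase. The sums share libraries and depth, so these values are a description.

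Slc30a5 and Slc30a7 encode ZnT5 and ZnT7, which bring zinc into the early secretory pathway. With TMM scaling Slc30a5 was not called between beta-like and any other endocrine class. Totals without hormones and acinar markers gave a call against alpha-like cells (0.43, adjusted p = 0.0026), where the median of all genes was 0.17. Slc30a5 stood at 21.3, 24.3 and 22.7 TMM CPM in beta-like cells, 21.7, 17.0 and 19.4 in alpha-like cells and 21.9, 22.2 and 21.2 in delta-like cells. Gamma-like cells held 23.4, 17.3 and 23.6, and all 4 classes overlapped. The 95% interval of the beta-like difference was 0.00 to 0.49 against alpha-like, -0.18 to 0.36 against delta-like and -0.36 to 0.33 against gamma-like cells on the log2 scale. Duct-like cells were lower and without overlap at 14.0, 14.5 and 14.0 TMM CPM, with a log2 fold change of 0.70 ± 0.16 for beta-like against duct-like cells (adjusted p = 1.4e-04). With totals unscaled this difference turned to -0.88, where the median of all genes stood at -1.62. That was a call in the opposite direction (adjusted p = 2.9e-05, edgeR quasi-likelihood test). The call against stromal-like cells (0.72 ± 0.26, adjusted p = 0.019) did not hold without mouse 2 (0.17) or mouse 3 (0.26). Unscaled, it turned to a call in the opposite direction (-0.64, adjusted p = 0.047, edgeR quasi-likelihood test), where the median of all genes was -1.28.

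Slc30a7 was higher in beta-like cells, at 15.1, 13.3 and 16.2 TMM CPM, than in alpha-like cells at 11.0, 9.69 and 10.8 or delta-like cells at 8.67, 8.60 and 8.46. The values did not overlap in either comparison. The log2 fold change was 0.50 ± 0.17 against alpha-like cells (adjusted p = 0.019, edgeR quasi-likelihood test) and 0.79 ± 0.20 against delta-like cells (0.0012). It was 0.60 ± 0.21 against duct-like cells (0.011) and 0.30 ± 0.24 against gamma-like cells (0.40). The difference from alpha-like cells missed the threshold without mouse 2 (0.078), without mouse 3 (0.17) and without the mouse block (0.051). Without mouse 3 the differences from delta-like (0.66, adjusted p = 0.079) and duct-like cells (0.49, 0.12) missed it too. All of these turned negative with totals unscaled, to -0.10, -0.44, -0.97 and -0.27 against alpha-like, delta-like, duct-like and gamma-like cells. The turned difference from duct-like cells was a call in the opposite direction (adjusted p = 9.9e-05, edgeR quasi-likelihood test), where the median of all genes was -1.62.

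**Figure D4:**
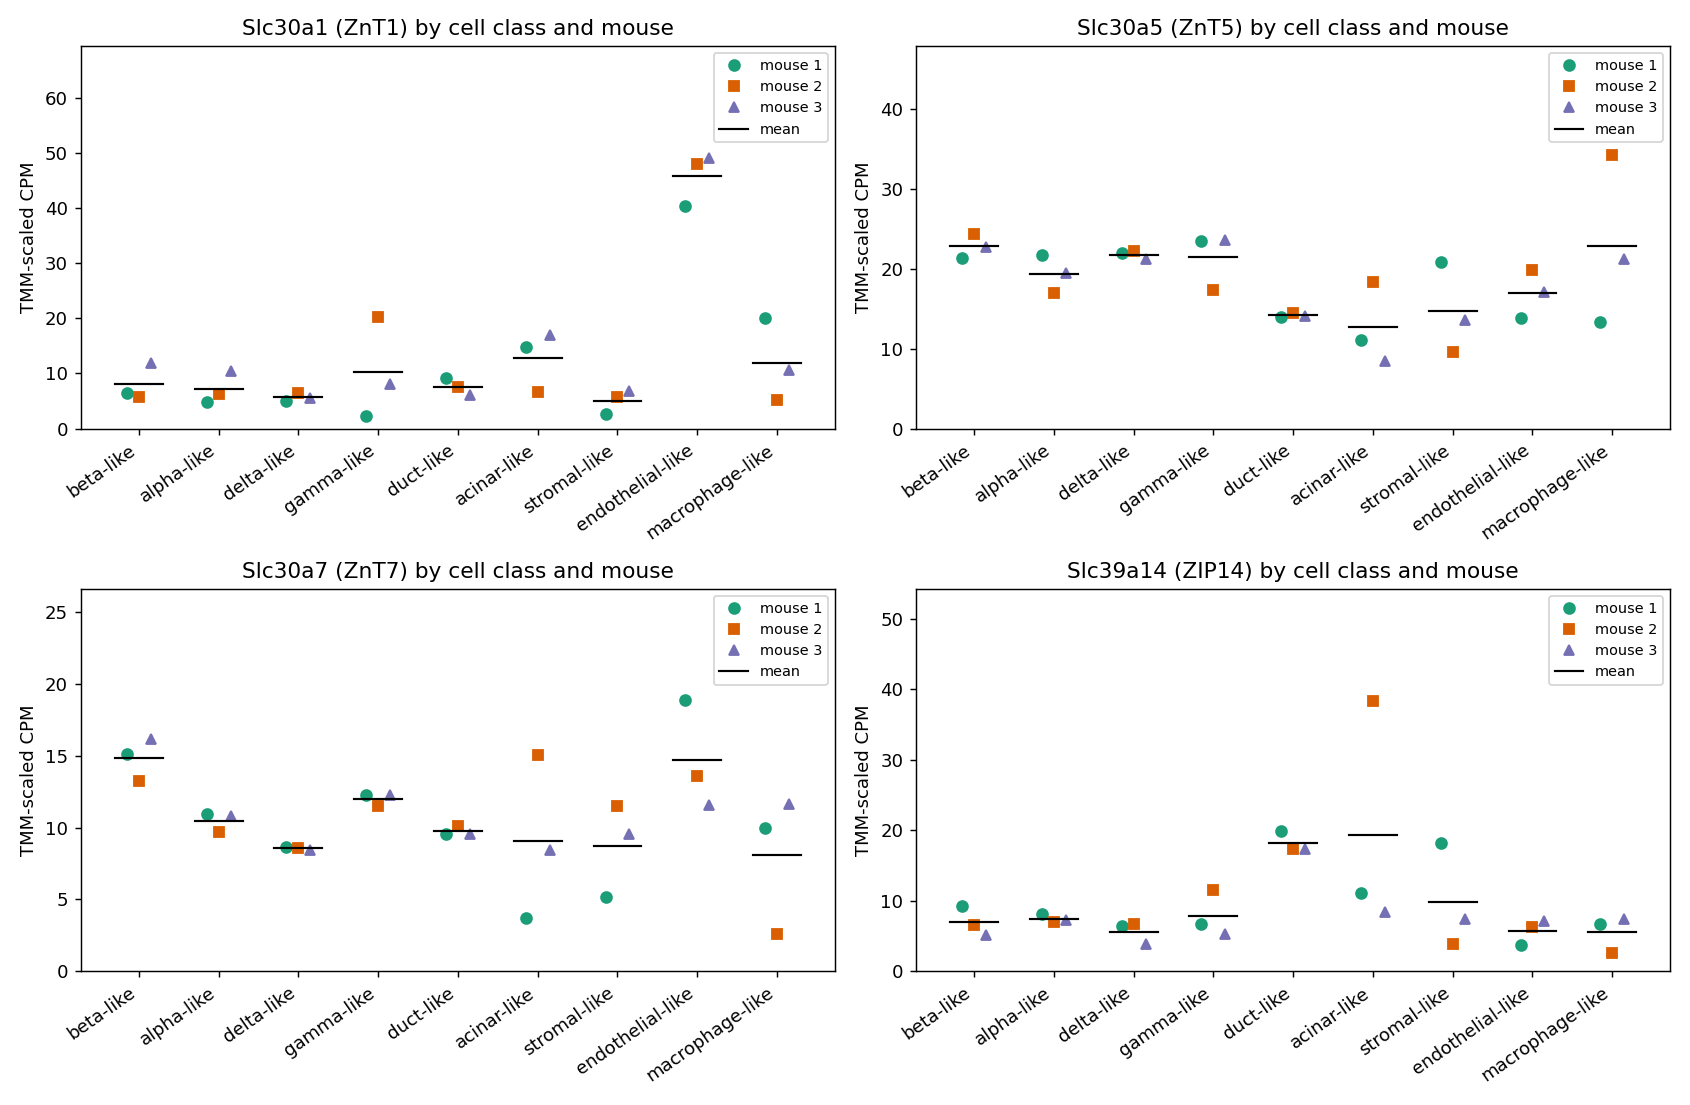
Levels (y axes, TMM CPM, linear) of Slc30a1, Slc30a5, Slc30a7 and Slc39a14 in 9 cell classes (x axes), with 1 point per mouse and a line at the mean. Endothelial-like cells hold Slc30a1 at 40.3 to 49.1, duct-like cells hold Slc39a14 at 17.4 to 19.9, and the acinar-like Slc39a14 value of mouse 2, 38.4, stands apart from 8.47 and 11.1.

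Slc30a1 encodes ZnT1, which exports zinc across the plasma membrane. Its level was 6.47, 5.76 and 11.9 TMM CPM in beta-like cells, 4.87, 6.19 and 10.4 in alpha-like cells and 5.02, 6.38 and 5.64 in delta-like cells. Most pairs of the 7 classes overlapped, acinar-like cells lying above delta-like cells, no adjacent pair in the order of their means passed the test, and no class differed from beta-like cells by a call. Endothelial-like cells, in contrast, held 40.3, 48.0 and 49.1 TMM CPM from 32, 46 and 89 UMIs. That was above every value of the other 8 classes, the next being 20.2 from 7 UMIs in gamma-like cells of mouse 2. The log2 fold change of endothelial-like over each of the 8 other classes ran from 2.06 ± 0.49 to 3.06 ± 0.41, and the difference from beta-like cells was 2.51 ± 0.25 (adjusted p = 3.1e-12), where 57.1% of all genes were called. Comparing endothelial-like cells alone was chosen after their values were seen. After thinning to 2000 UMIs, 16.3%, 15.7% and 15.2% of endothelial-like cells held an Slc30a1 UMI, against 0.746%, 0.342% and 2.05% of beta-like cells. An antisense gene model overlaps Slc30a1, and reads of the 2 cannot be told apart if strand was not used.

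Slc39a14 encodes ZIP14, an importer of zinc that also carries iron and manganese. Duct-like cells held 19.9, 17.4 and 17.4 TMM CPM, from 50 to 62 UMIs. Beta-like cells held 9.34, 6.54 and 5.18, alpha-like cells 8.17, 6.99 and 7.32, and delta-like cells 6.39, 6.65 and 3.84. Duct-like values exceeded those of each endocrine class without overlap. Stromal-like cells held 18.2, 3.84 and 7.48 TMM CPM, from 7, 2 and 11 UMIs. Their value in mouse 1 fell within the duct-like range, though duct-like cells were higher in 3 of 3 mice. Slc39a14 was 2.69-fold higher in duct-like than in beta-like cells (log2 fold change of beta-like minus duct-like -1.43 ± 0.23, adjusted p = 4.9e-07), and this call held under every scaling tried. The log2 fold change of alpha-like minus duct-like was -1.25 ± 0.22, that of delta-like minus duct-like -1.78 ± 0.26 and that of gamma-like minus duct-like -1.48 ± 0.33. All 3 were calls, where 57.1%, 55.3% and 47.8% of all genes were called.

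Acinar-like cells held Slc39a14 at 11.1, 38.4 and 8.47 TMM CPM, from 3, 23 and 1 UMIs. The call of beta-like below acinar-like cells (-1.93 ± 0.41, adjusted p = 1.7e-04) rested on mouse 2, since without it the log2 fold change was -0.48 (0.79). It was also lost with totals unscaled (-0.40) and with totals taken without hormones and acinar markers (-0.06). The medians of all genes in these settings were 1.78 and 2.15. The order of duct-like and acinar-like cells could not be told (0.50 ± 0.37 in favour of acinar-like cells, adjusted p = 0.34). The 5 genes most like Slc39a14 over the 27 sums were Bche (r = 0.752), Krt23 (0.736), Ces1d (0.714), Mpnd (0.713) and Pigr (0.709), and 4 of them had their highest mean in duct-like cells, Mpnd having it in acinar-like cells.

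Mt1 reached its highest level in acinar-like cells, at 11675, 11159 and 5258 TMM CPM. Beta-like cells held 721, 931 and 1533 TMM CPM, with mouse 3 the highest. Alpha-like cells held 212, 213 and 253, and delta-like cells 57.0, 97.6 and 50.3. Each of these classes was apart from the others in every mouse, in the order acinar-like, beta-like, alpha-like, delta-like. Alpha-like cells exceeded delta-like cells by 1.80 ± 0.42 (adjusted p = 0.0031, edgeR quasi-likelihood test), where 3926 of 12448 genes were called. That difference was 3.37 with free RNA subtracted (0.14) and 1.77 without mouse 1 (0.058), and missed the threshold in both. Mt1 was 4.79-fold higher in beta-like than in alpha-like cells (log2 fold change 2.26 ± 0.42, adjusted p = 2.9e-04) and 16.7-fold higher than in delta-like cells (4.06 ± 0.46, 1.3e-06). Acinar-like cells exceeded beta-like cells 8.28-fold (log2 fold change of beta-like minus acinar-like -3.05 ± 0.44, 3.3e-05).

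The size of the acinar difference depends on the scale. Acinar markers made up 59.9% to 60.0% of acinar-like UMIs, and in CPM without scaling Mt1 stood at 2039 ± 312 in acinar-like and 670 ± 320 in beta-like cells (SD, n = 3). The log2 difference was then -1.56, and it was -1.27 with totals taken without hormones and acinar markers. The direction stayed and the call was kept under both, where the medians of all genes were 1.78 and 2.15.

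Gamma-like cells held Mt1 at 311, 156 and 200 TMM CPM, duct-like cells at 280, 387 and 165 and stromal-like cells at 185, 345 and 263. These classes and alpha-like cells overlapped, and no adjacent pair among them in the order of means passed the test. Beta-like cells exceeded gamma-like cells by 2.25 ± 0.43 (adjusted p = 7.0e-04), duct-like cells by 2.05 ± 0.42 (4.0e-04) and stromal-like cells by 2.06 ± 0.43 (6.8e-04). Unscaled, the calls against duct-like (0.48) and stromal-like cells (0.73) were lost. Macrophage-like cells held 932, 1469 and 801 TMM CPM, which overlapped beta-like cells, with a log2 difference of macrophage-like minus beta-like of -0.09 ± 0.41. Endothelial-like cells were low at 66.8, 109 and 27.6.

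Acinar RNA in other classes could bring Mt1 along. At the acinar-like ratio of Mt1 to acinar markers, such RNA would make up 0.895%, 2.44% and 0.135% of the Mt1 UMIs of beta-like cells and 3.23%, 15.4% and 0.965% of those of alpha-like cells. In delta-like cells the share was 17.2%, 41.6% and 5.94%, and in endothelial-like cells 32.7%, 66.3% and 22.7%. It was at most 17.8% in duct-like, stromal-like and macrophage-like cells. The share was lowest in beta-like cells and highest in delta-like and endothelial-like cells, most in mouse 2. With free RNA subtracted, the log2 fold changes of Mt1 against alpha-like (3.23), gamma-like (3.01), duct-like (2.06), stromal-like (2.26) and acinar-like cells (-3.86) kept their direction but missed the threshold, at adjusted p = 0.12, 0.19, 0.25, 0.24 and 0.064.

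Mt2 repeated the pattern at lower counts. Acinar-like cells held 1558, 1958 and 1101 TMM CPM, beta-like cells 134, 152 and 300, alpha-like cells 42.6, 44.3 and 57.1 and delta-like cells 15.5, 10.5 and 7.79. These 4 classes did not overlap. Alpha-like cells exceeded delta-like cells by 2.23 ± 0.51 (adjusted p = 0.0023, edgeR quasi-likelihood test). That difference missed the threshold with free RNA subtracted (4.25, 0.058) and without mouse 2 (2.30, 0.066). Mt2 was higher in beta-like than in alpha-like cells by 2.02 ± 0.41 (adjusted p = 7.0e-04), than in delta-like by 4.25 ± 0.51 (2.6e-06), than in duct-like by 1.65 ± 0.42 (0.0027) and than in gamma-like cells by 1.65 ± 0.47 (0.014, but 0.12 without mouse 2). With free RNA subtracted, the log2 fold changes of Mt2 were 1.64 against duct-like and 1.99 against gamma-like cells, no smaller than before beyond rounding, but missed the threshold (0.19 and 0.25). With totals unscaled they were 0.067 (0.90) and 1.05 (0.099), and both calls were lost. Stromal-like cells, at 33.8, 71.0 and 144 TMM CPM, overlapped beta-like cells, and that difference (1.03 ± 0.46) missed the threshold at 0.075, with beta-like cells higher in 3 of 3 mice. It passed with no filter on low counts (1.10), with totals without hormones and acinar markers (1.21), with the DESeq2 Wald test (1.08), with other clusters (1.13), without mouse 3 (1.37) and after thinning (1.21), at adjusted p between 1.1e-07 and 0.049. With totals unscaled it turned to -0.30. In mouse 3 most of the stromal-like Mt2 came from fibroblast-like cells, with 187 of 212 UMIs.

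**Figure D5:**
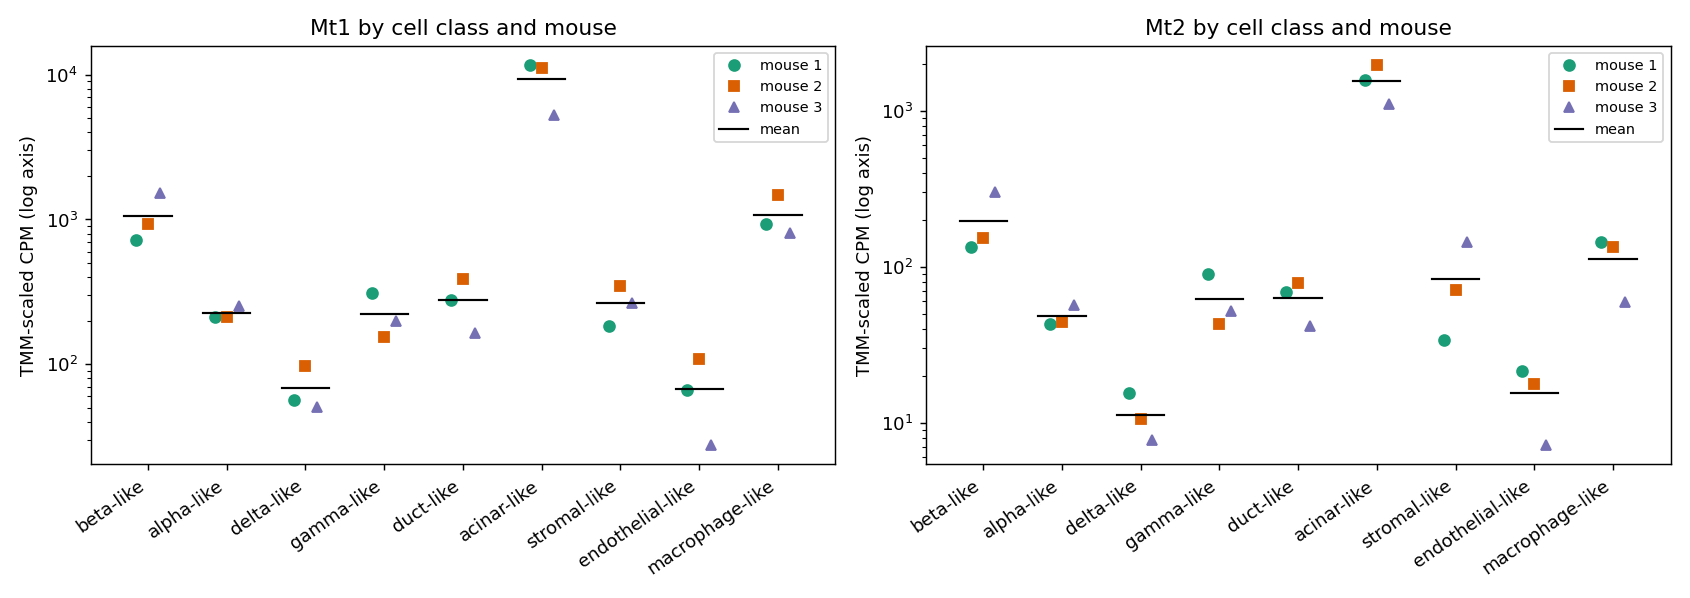
Mt1 (left) and Mt2 (right) levels (y axes, TMM CPM, log scale) in 9 cell classes (x axes), with 1 point per mouse and a line at the mean. Acinar-like cells are highest for both, beta-like cells are above alpha-like cells in all 3 mice, and delta-like and endothelial-like cells are lowest.

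The metallothioneins rose and fell together between cells as well. Among cells with at least 10000 UMIs, log CPM of Mt1 and Mt2 correlated at r = 0.764, 0.728 and 0.775 in beta-like cells (85, 252 and 301 cells) and at 0.601, 0.535 and 0.497 in alpha-like cells (146, 233 and 837 cells). Slc30a8 and Mt1 correlated at 0.183, 0.212 and 0.246 in beta-like cells, at 0.132, -0.022 and 0.124 in alpha-like cells and at -0.012 in acinar-like cells of mouse 2. The cells of a mouse share a library and free RNA, and these values are descriptions. Across the 27 sums Mt1 and Mt2 correlated at r = 0.965. There were 5.39, 6.15 and 5.11 Mt1 UMIs per Mt2 UMI in beta-like cells, 4.97, 4.81 and 4.43 in alpha-like cells and 3.44, 3.60 and 3.85 in gamma-like cells. Macrophage-like cells had 6.51, 11.0 and 13.5, and stromal-like cells of mouse 3 had 1.83.

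Beta-like cells spread widely in Mt1. The 10th percentile, median and 90th percentile over cells were 0, 332 and 1127 CPM in mouse 1, 56.0, 410 and 1195 in mouse 2 and 126, 989 and 2196 in mouse 3. Mouse 3 was the highest at each of these points. Alpha-like cells spread widely too, with 10th percentiles of 0, medians of 126, 121 and 175 and 90th percentiles of 699, 568 and 680 CPM. These percentiles take in cells of every depth, and zeros from few UMIs in shallow cells widen them. Among cells with at least 10000 UMIs, Mt1 correlated with depth at r = -0.026, -0.018 and -0.356 in beta-like cells. In alpha-like cells it did so at -0.098, -0.157 and -0.136. The part of depth in the spread was not tested. After thinning to 2000 UMIs, Mt1 was detected in 47.0%, 58.9% and 75.4% of beta-like, 26.4%, 32.5% and 35.3% of alpha-like and 71.0%, 94.0% and 87.5% of acinar-like cells. Endothelial-like cells gave 18.4%, 37.3% and 9.95%, above the alpha-like share in mouse 2. The alpha-like share there is lowered by Gcg, which made up 45.6% of the UMIs. In TMM CPM, Mt1 of mouse 2 was higher in alpha-like (213) than in endothelial-like cells (109).

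The genes most like Mt1 over the sums, the other metallothionein aside, were Serp1 (r = 0.910), Uqcrq (0.895), Clptm1l (0.883), H2afj (0.882) and H13 (0.873), each highest in acinar-like cells. Serp1 encodes a protein of the endoplasmic reticulum, and Uqcrq a subunit of respiratory complex III.

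The rest of the zinc system was read from lists. Of 6 other Slc30 exporters, 3 passed the filter on low counts, and 0 of them were called between beta-like and alpha-like cells by edgeR (0 at an unadjusted p under 0.05) or DESeq2 (0 at an unadjusted p under 0.05). Their values were 0.34 ± 0.19 for Slc30a4, 0.13 ± 0.11 for Slc30a9 and 0.17 ± 0.21 for Slc30a6 on the log2 scale. Of 13 other Slc39 importers, 11 were tested and 4 were higher and 1 lower in beta-like than in alpha-like cells, with 39.6% of all genes called and a median log2 fold change of 0.32 against -0.01 over all genes. Slc39a8, which encodes the plasma membrane importer ZIP8, averaged 12.5 ± 4.05 TMM CPM in beta-like and 0.512 ± 0.355 in alpha-like cells (SD, n = 3). The groups did not overlap, and the log2 fold change was 4.37 ± 0.37 (adjusted p = 1.8e-14). Slc39a11 (ZIP11) went the other way, at 2.44 ± 0.791 in beta-like and 12.6 ± 2.08 in alpha-like cells (-2.43 ± 0.26, 2.0e-11). Slc39a7, the ZIP7 importer that releases zinc from the endoplasmic reticulum, was higher in beta-like cells by 0.54 ± 0.14 (0.0018).

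In beta-like against duct-like cells, 5 of the 11 importers were called higher and 3 lower, where 60.8% of all genes were called. Against acinar-like cells 2 were called higher and 4 lower, where 30.1% were called. Among the lower ones, picked after their values were seen, Slc39a4 averaged 38.6 ± 11.1 TMM CPM in duct-like cells and was at 0 in all 3 beta-like sums. Slc39a5 averaged 210 ± 117 in acinar-like cells and 0.163 ± 0.282 in beta-like cells. The encoded ZIP4 and ZIP5 are importers known from the intestine, and ZIP5 also from the pancreas.

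Of the other metallothioneins and the sensor Mtf1, 2 of 3 were tested. Mt3, best known from the brain, averaged 21.5 ± 4.02 TMM CPM in beta-like and 1.18 ± 0.119 in alpha-like cells, without overlap (4.03 ± 0.27, adjusted p = 1.7e-18). It was also higher in beta-like cells than in delta-like (2.69 ± 0.27), gamma-like (3.92 ± 0.44), duct-like (6.45 ± 0.48), acinar-like (3.52 ± 0.71) and stromal-like cells (5.45 ± 0.71), all past the threshold. Mt3 therefore differed from Mt1 and Mt2 in the side on which acinar-like cells fell. Mtf1 held 20.5 ± 0.961 TMM CPM in beta-like and 21.6 ± 1.84 in alpha-like cells (-0.09 ± 0.13, adjusted p = 0.63).

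Metals and stresses that also bear on metallothioneins were set beside them. Of all genes, 39.6% were called between beta-like and alpha-like cells, and the shares called among the copper, iron and glucocorticoid genes were near it. Of 10 copper genes, 3 were called higher and 1 lower in beta-like than in alpha-like cells, among them the copper pump Atp7a (1.43 ± 0.18, adjusted p = 1.7e-09) and the copper importer Slc31a1 (0.95 ± 0.18, 1.9e-05). Of 10 iron genes, 3 were higher and 1 lower, with the ferritin light chain Ftl1 at 1.40 ± 0.17 (1.7e-09) and the transferrin receptor Tfrc at 0.79 ± 0.23 (0.0040). Of 16 genes of the dissociation response, 2 were called higher and 7 lower in the beta-like class, where 20% of all genes were higher and 19.6% lower. Atf3 was lower by -3.82 ± 0.27 (2.8e-10) and Dusp1 by -1.11 ± 0.15 (2.2e-08), while the heat shock gene Hspa1a was higher by 1.74 ± 0.26 (2.4e-05). The summed level of that list was 5432 to 8714 TMM CPM in beta-like, 8203 to 12240 in alpha-like, 4259 to 6579 in acinar-like and 11800 to 19287 in macrophage-like cells. It was 8449 to 11768 in delta-like and 10130 to 15886 in duct-like cells. The sum was lower in beta-like than in alpha-like cells within each mouse, at 5639 against 9105, 5432 against 8203 and 8714 against 12240. Acinar-like values lay below the alpha-like range and macrophage-like values reached above it. Mt1 was highest in the former class and overlapped beta-like cells in the latter.

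Of 8 glucocorticoid-response genes, 1 was called higher and 2 lower in beta-like than in alpha-like cells. Cebpd was higher by 1.46 ± 0.28 (adjusted p = 2.9e-04), Zbtb16 lower by -4.31 ± 0.46 (1.2e-10) and Fkbp5 lower by -0.44 ± 0.12 (0.0031). The part of either response in the Mt1 and Mt2 levels was not tested.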

How the data were processed

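Islets of 3 mice were measured with 1 library each by the 10x Genomics 3′ v2 protocol. The deposited matrices hold counts, which are whole UMIs per gene and barcode, for barcodes already selected in a way not given in the sources used here. Cell Ranger 2.2 and mm10 come from the submitters' processing notes, whereas version 3.1.0 stands in the matrix headers. The libraries held 32389170, 48076507 and 57849496 UMIs. The 7 genes, the gene lists and the comparisons were chosen with earlier results of these data known.

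Barcodes under 500 genes or above 15% mitochondrial UMIs were dropped, and doublets were removed by Scrublet score (scanpy 1.11.5) at 0.8% per 1000 barcodes, which took out 55, 96 and 166 cells. Leiden clusters (leidenalg 0.10.2, igraph 0.11.9, resolution 1, 20 components, 20 neighbours) were made from 141 marker genes of 20 types. A cluster took a name when its 30 leading genes held at least 3 markers, with 1 or more in the first 10, and at least 3 were raised 2-fold (pseudocount 20 CPM, detection in 10% of cells). Clusters led by gene models that overlap ribosomal RNA were left unnamed, a rule chosen after seeing the data. Some classes are mixed over clusters that come mostly from 1 mouse.

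Sums of at least 10 cells in 9 classes entered 1 fit in edgeR 4.0.16 (R 4.3.3) with filterByExpr, TMM, robust glmQLFit and glmQLFTest, and a false discovery rate of 0.05. The fit was tested on simulated counts. Classes of a mouse come from the same animal, and their deviations correlated at a median of 0.367 (range -0.0964 to 0.79) against -0.161 between mice, so the mouse is a block. DESeq2 1.42.0 was an alternative. Intervals of a fold change use the fit's own standard error. Named list genes are the 3 with the smallest p between beta-like and alpha-like cells, Commd1 and Ireb2 among them (0.45 ± 0.14 and 0.47 ± 0.12 on the log2 scale, adjusted p = 0.0073 and 0.0011). Likeness used tested genes reaching 50 CPM, without markers and numbered gene models. Of the feature IDs, 30934 were in GENCODE M21 and 119 were not. Promoters are from RefSeq (GRCm38.p6).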

Additional observations from a re-analysis of the deposited data

How the results depend on the processing

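For the 7 genes the mouse block mattered little. Over all genes, calls between beta-like and alpha-like cells fell from 4928 to 3664 without it. With no replicate block the call of Slc30a7 against alpha-like cells was lost (0.49, adjusted p = 0.051) and Slc30a5 against gamma-like cells turned from -0.012 to 0.0077. No other call of the 7 genes changed among the comparisons repeated. Of the counts of genes called under an alternative, 105 stayed within 1.5 times the reported count. The exceptions were 5 genes against stromal-like cells with totals without hormones and acinar markers, 1 against gamma-like cells with free RNA subtracted and 3 against duct-like cells after thinning to 2000 UMIs, where low genes were not tested. Of the fold changes of the 7 genes, 786 kept direction and call, 30 lost the call, 17 gained it and 48 turned. No turned fold change belonged to Slc30a8 beyond alpha-like cells or to Mt1.

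With no scaling beyond totals the median of all genes moved to -0.60, -1.25, -0.48, -1.62, 1.78 and -1.28 against alpha-like, delta-like, gamma-like, duct-like, acinar-like and stromal-like cells. In that setting, against alpha-like cells, Slc30a8 turned to -0.41, Slc30a1 to -0.50, Slc30a5 to -0.36 and Slc30a7 to -0.10. Against delta-like cells Slc30a1 turned to -0.69, Slc30a5 to -1.16, Slc30a7 to -0.44 and Slc39a14 to -0.89. Against gamma-like cells Slc30a1 turned to -0.41, Slc30a7 to -0.27 and Slc39a14 to -0.52. Against duct-like cells Slc30a1 turned to -1.48, Slc30a5 to -0.88 and Slc30a7 to -0.97. Slc30a1 turned to 1.05 against acinar-like cells. Against stromal-like cells Slc30a1 turned to -0.80, Slc30a5 to -0.64, Slc30a7 to -0.66 and Mt2 to -0.30. Among these turns, edgeR's quasi-likelihood test called Slc30a5 lower in beta-like than in alpha-like (adjusted p = 0.036), delta-like (1.5e-08), duct-like (2.9e-05) and stromal-like cells (0.047). Slc30a1 was called lower than in delta-like (0.035) and duct-like cells (4.2e-05), Slc30a7 than in duct-like (9.9e-05) and Slc39a14 than in delta-like cells (0.0052). Slc30a5 against duct-like and stromal-like and Slc30a7 against duct-like cells had been called higher with TMM. The moves in this setting follow from the construction, since a few genes fill the beta-like and acinar-like totals.

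Under the settings other than no scaling, no turned difference had a call before, and 1 gained it on turning, Slc30a1 against acinar-like cells (1.38, adjusted p = 0.016, with totals without hormones and acinar markers). The median of all genes in that comparison and setting was 2.15, above the value of Slc30a1. Slc30a5 against delta-like cells became -0.0067 with DESeq2 size factors and -0.011 with the DESeq2 Wald test. Slc30a5 against gamma-like cells became 0.034 without the filter on low counts, 0.084 with at least 1000 genes per cell, 0.11 with at most 10% mitochondrial UMIs, 0.24 when highly variable genes made the clusters, 0.018 at resolution 0.5 and 0.0087 with ribosomal-RNA-led clusters named, an alternative chosen after seeing the data. Slc39a14 against gamma-like cells became -0.016 with DESeq2 size factors, -0.037 with the DESeq2 Wald test, -0.038 with the mitochondrial limit, -0.029 with the variable genes and -0.11 with free RNA subtracted. Slc39a14 against alpha-like cells became 0.0070 with totals without hormones and acinar markers. Slc30a1 became -0.035 against gamma-like cells with the Wald test, -0.54 against alpha-like and -0.54 against duct-like cells after thinning, and 1.38, 0.086 and 0.28 against acinar-like cells with those totals, after thinning and with those clusters named. Leaving out each mouse gave ranges of -0.0069 to 0.24 (alpha-like), -0.38 to 0.57 (gamma-like) and -0.47 to 0.32 (duct-like) for Slc30a1, -0.092 to 0.059 for Slc30a5 against gamma-like cells, and -0.090 to 0.19 (gamma-like) and -0.32 to 0.0012 (alpha-like) for Slc39a14. The cause of these turns was not tested. Acinar-like and stromal-like sums hold as few as 1 UMI of a transporter and gamma-like sums as few as 2, which limits every statement on them.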

Other observations

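Smaller classes outside the comparisons held metallothioneins too. Schwann-like cells held Mt1 at 715, 589 and 352 CPM, from 29, 8 and 37 cells, and dendritic-like cells at 59.9, 550 and 348 CPM, from 12, 58 and 120 cells, without TMM scaling. Both classes rest on few cells in some mice, and no test was run.

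Slc30a2, which encodes ZnT2, an exporter known from zinc-secreting glands, did not pass the filter on low counts. It averaged 21.3 ± 3.60 TMM CPM in acinar-like cells (SD, n = 3), 0.106 ± 0.183 in alpha-like cells and 0.097 ± 0.167 in duct-like cells, and it was at 0 in all 3 beta-like sums. It was chosen after its values were seen.

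Acinar-like cells of mouse 2 fell into 2 clusters with different Mt1. The larger cluster, with 60 cells, 62.9% acinar-marker UMIs and a median of 17999 UMIs, held Mt1 at 2602 CPM. The other, with 56 cells, 40.9% acinar-marker UMIs and a median of 5880.5 UMIs, held it at 1058 CPM.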
